A study of Mus musculus with 9 samples.

Results

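The dual-specificity MAP kinase phosphatases were examined in mouse dorsal root ganglia (DRG), the ganglia that hold the cell bodies of sensory neurons, after transection of the sciatic nerve. The genes considered were Dusp1, Dusp2, Dusp4, Dusp5, Dusp6, Dusp7, Dusp8, Dusp9, Dusp10 and Dusp16. Their probes were found by the gene symbol, an older symbol or the transcript identifier in the scanner files, which gave 14 probes for 9 of the 10 genes, out of 41174 probes on the array. By this rule no probe was found for Dusp5, which was not analysed here. Each sample was total RNA from L3/L4 DRG of adult mice, labelled with Cy5 and hybridised together with a Cy3-labelled universal mouse reference RNA (Stratagene), with no dye swap. The 5 injured samples (lesion) were taken 3 days after sciatic nerve transection and the 4 uninjured samples (control) from DRG without the lesion, while every sample of both groups carried the labels cre.neg and jun.wt. The results text of the study names L4 ganglia and an earlier time than its methods and the sample labels. The methods of the study name ganglia of the opposite side as controls in its nerve crush experiments, and for the arrays only DRG without the lesion. The sources used here do not tie the arrays to animals or a strain, so p-values measure the spread between these samples.

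These phosphatases remove phosphate from both the threonine and the tyrosine of the activation loop of MAP kinases and so switch off ERK, JNK and p38. Dusp1, Dusp2, Dusp4 and Dusp5 encode nuclear enzymes that are themselves induced by growth factors and stress. Dusp6, Dusp7 and Dusp9 encode cytoplasmic enzymes that prefer ERK, and Dusp8, Dusp10 and Dusp16 encode enzymes that prefer JNK and p38. In injured sensory neurons JNK signalling through the kinase DLK drives phosphorylation of c-Jun.

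Levels are given as log2 ratios of DRG over the reference RNA, after background correction and loess within each array. Loess sets the typical ratio of probes of like brightness to 0, so 0 need not mean equal amounts in DRG and reference. A level can be compared between arrays for a probe, not between probes. Changes are the injured mean minus the uninjured mean on this scale, tested with limma over all 31186 probes with Cy5 above background on at least 4 arrays and called at a Benjamini-Hochberg adjusted p under 0.05. All 14 probes passed this filter with Cy5 above background on all 9 arrays, and none was saturated. Of these 14 probes 4 passed the test (28.6%), against 23.4% of all probes. Higher after injury were 3 of them, Dusp1, Dusp10 and a probe of Dusp9, where 10.5% of all probes were higher, and lower was 1, a probe of Dusp4, where 12.9% of all probes were lower. The injured and uninjured arrays did not overlap for 5 of the 14 probes, against 22.5% of all probes. The median change over the 14 probes was 0.17, and over all probes −0.0043.

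By the slide numbers in the names of the scanner files, the arrays lay on 3 slides. These held 3 uninjured arrays, uninjured array 1 with injured arrays 1, 2 and 5, and injured arrays 3 and 4. A change within the slide with both groups, or with slide as a covariate over all arrays, therefore sets 3 injured arrays against the lone uninjured array 1, whose own spread is assumed to be that of the other arrays. The median Cy5 brightness was between 200 and 231 on uninjured and between 156 and 238 on injured arrays, and Cy5 was above background at 71.0% to 78.9% of spots. Markers of sensory neurons were above background for 9 of 9 genes, and their mean level relative to the uninjured mean ranged from −0.11 to 0.10 on uninjured and from −0.27 to 0.19 on injured arrays. Injured arrays 2 and 4 stood apart in 5 muscle genes, with mean levels of 1.81 and 3.31 above the uninjured mean, where the other arrays lay between −0.11 and 0.31. In the red blood cell genes Alas2 and Hba-a1, injured arrays 2, 4 and 5 lay 1.32, 0.71 and 1.45 above the uninjured mean and the others between −0.13 and 0.22. The mean of 10 macrophage genes ranged from −0.41 to 0.36 on uninjured and from 0.15 to 1.03 on injured arrays, and 3 of the 10 were higher after injury (Aif1, Cd14 and Itgam). The mean of 3 neutrophil genes ranged from −0.40 to 0.40 on uninjured arrays and was 0.40, 2.37, 0.43, 1.28 and 0.74 on injured arrays 1 to 5, and none of the 3 passed the test. Of 6 satellite glia genes (median change 0.04), 2 were higher, Glul (0.78, limma adjusted p = 0.000136) and Slc1a3 (0.22, adjusted p = 0.0388), and 4 were not called. Of 5 endothelial genes (median 0.14), 1 was higher, Tek (0.47, adjusted p = 0.025), and 4 were not called. Of the 9 sensory neuron genes (median −0.0057), 1 was lower, Isl1 (−0.51, adjusted p = 0.000166), and 8 were not called. The part of these cells in the phosphatase values was not tested. In such whole tissue, fewer cells of a type and less RNA per cell cannot be told apart.

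**Figure D1:**
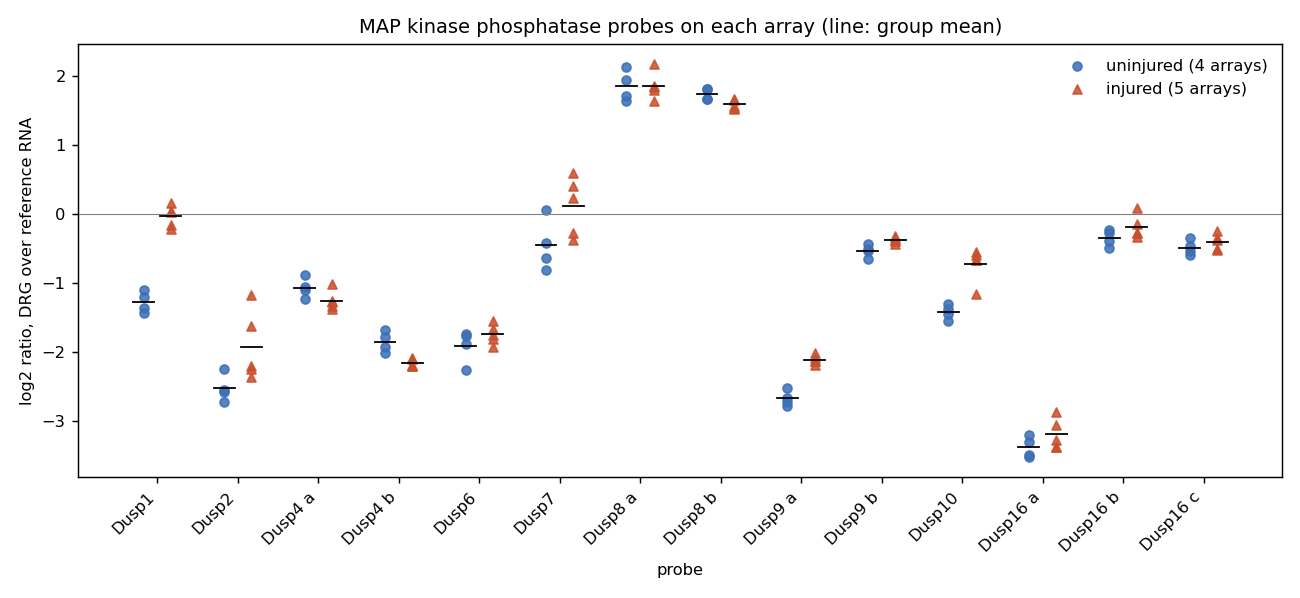
The log2 ratio of DRG over reference RNA (vertical axis) of each of the 14 probes (horizontal axis) on the 4 uninjured arrays (circles) and the 5 injured arrays (triangles), with group means as lines. Letters a, b and c mark probes of the same gene, a being the brightest by the mean of Cy5 and Cy3. The injured arrays lay apart from the uninjured arrays for Dusp1, Dusp4 b, Dusp9 a, Dusp9 b and Dusp10.

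Among the nuclear inducible enzymes, Dusp1 showed the largest change of the 14 probes. Dusp1 dephosphorylates JNK, p38 and ERK and is an immediate early gene of stress and growth factor signalling. Its probe (A_51_P430900) lies at chr17:24690398-24690455 of mouse build mm7, on the minus strand. The log2 ratio of Dusp1 was −1.44, −1.36, −1.10 and −1.21 on uninjured arrays 1 to 4, and 0.15, 0.04, −0.22, 0.03 and −0.16 on injured arrays 1 to 5. Every injured array was therefore above every uninjured array. The mean was −1.27 ± 0.154 (SD, n = 4) without injury and −0.03 ± 0.152 (SD, n = 5) with it, a rise of 1.24 (standard error 0.0957, limma adjusted p = 9.59e-06) or 2.37-fold. Within the slide that held both groups the Dusp1 change was 1.45, which rests on 1 uninjured array. Its limma adjusted p was 0.0504 on these 4 arrays alone and 0.00245 with slide as a covariate, where the change is the same and the other slides add only to the estimate of the spread. Without injured arrays 2 and 4 the change of Dusp1 was 1.20 (adjusted p = 0.000441), and without injured arrays 2, 4 and 5 it was 1.24 (adjusted p = 0.00108).

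The genes most like Dusp1 across the 9 arrays, by Pearson's r over the brightest probe of each other named gene, were Ankrd13a (r = 0.996), S100a11 (r = 0.993) and Akr1b8 (r = 0.992). All 3 were higher after injury, by 0.82, 0.81 and 1.39. After subtraction of each group's mean the correlations with Dusp1 were 0.922, 0.831 and 0.805. The genes were chosen by r over the same 9 arrays, which includes this part, so these values are no separate evidence.

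Dusp2, a nuclear phosphatase best known from activated lymphocytes and myeloid cells, was measured by a probe (A_52_P399934) at chr2:127079047-127079106. Its log2 ratio was −2.55, −2.73, −2.57 and −2.24 on uninjured arrays 1 to 4, and −2.36, −1.62, −2.24, −2.20 and −1.18 on injured arrays 1 to 5. Injured arrays 2 and 5 were high, while injured arrays 1 and 3 lay within the uninjured range. The difference was 0.60 (standard error 0.224) and did not pass the test (limma adjusted p = 0.0785). Injured arrays 2 and 5 were also those with the highest means of the 10 macrophage genes, at 0.94 and 1.03, against 0.15, 0.39 and 0.49 on injured arrays 1, 3 and 4. The same arrays were the highest for the means of leukocyte and T cell genes (0.45 and 0.31), and also of satellite glia, endothelial, fibroblast, red cell and dividing cell genes, whereas the neutrophil genes were highest on injured arrays 2 and 4. Without injured arrays 2, 4 and 5, left out for their red cell genes, the difference for Dusp2 was 0.22. These arrays also held the highest Dusp2 values of the injured group, so a smaller difference had to follow. The part of any cell type in the Dusp2 values was not tested. Dusp2 was called without injured array 1 (0.71, adjusted p = 0.0442) and with slide as a random block (0.62, adjusted p = 0.0286), for which the estimated correlation within slides was negative.

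Dusp4, an inducible nuclear phosphatase of ERK and JNK, was measured by a pair of probes on the plus strand of chromosome 8 that start 2761 bases apart. The dimmer probe (A_51_P518051, labelled b, chr8:33580345-33580404) had log2 ratios of −1.92, −2.01, −1.68 and −1.78 on uninjured arrays 1 to 4 and of −2.18, −2.21, −2.09, −2.10 and −2.20 on injured arrays 1 to 5. All injured arrays lay below all uninjured arrays by this probe. It fell by 0.31 (standard error 0.0753, limma adjusted p = 0.0135), a 1.24-fold lower level after injury. The brighter probe (A_51_P347333, labelled a, chr8:33583106-33583165) ranged from −1.24 to −0.89 on uninjured and from −1.38 to −1.02 on injured arrays, with a difference of −0.18 (standard error 0.0903, limma adjusted p = 0.179), which was called without injured array 5 (−0.24, adjusted p = 0.0475) and with array weights (−0.23, adjusted p = 0.037). The changes of the Dusp4 probes differed by 0.12 (two-sided exact permutation test over all splits of the arrays, p = 0.317, 0.59 after adjustment over 6 such pairs). The call on probe b was lost with slide as a covariate (−0.27, adjusted p = 0.306), with background fitted on all spots, outlier-flagged ones included (−0.16, adjusted p = 0.506), with median centring (−0.37, adjusted p = 0.0961) and without injured arrays 2 and 4 (−0.31, adjusted p = 0.0672). The fit on all spots distorted injured array 2, whose ratios had a slope of 0.82 against those processed by the authors.

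Of the cytoplasmic ERK phosphatases, Dusp9 was higher after injury by the probe that was brighter over Cy5 and Cy3 together. Dusp9 is an ERK phosphatase known from placenta and development, and both of its probes lie on the plus strand of the X chromosome, with starts 790 bases apart. The brighter probe (A_52_P648601, labelled a, chrX:69029777-69029836) had log2 ratios of −2.72, −2.66, −2.79 and −2.51 on uninjured arrays 1 to 4 and of −2.12, −2.01, −2.19, −2.09 and −2.13 on injured arrays 1 to 5. The groups were narrow and did not overlap. The uninjured mean was −2.67 ± 0.115 (SD, n = 4) and the injured mean −2.11 ± 0.0633 (SD, n = 5), a rise of 0.56 (standard error 0.0679, limma adjusted p = 0.000213) or 1.48-fold. The size of this rise depended on the processing, from 0.36 with the probes of the gene averaged to 0.83. On the slide with both groups the change by this probe, against the lone uninjured array, was 0.63, with a limma adjusted p of 0.161 on that slide alone and of 0.0304 with slide as a covariate.

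The other Dusp9 probe (A_52_P575658, labelled b, chrX:69028987-69029046) also separated the groups, though narrowly, from −0.65 to −0.43 on uninjured and from −0.43 to −0.32 on injured arrays. Its difference was 0.16 (standard error 0.0597) and did not pass the test (limma adjusted p = 0.0778), although it did without uninjured array 2 (0.19, adjusted p = 0.0494) and with array weights (0.19, adjusted p = 0.026). The change of probe a exceeded that of probe b by 0.40 (exact permutation test, p = 0.0159, the smallest these 9 arrays allow, and 0.0952 after adjustment over the 6 pairs). In Cy5, the DRG channel, the brightness of probe a ranged from 168 to 328 and that of probe b from 198 to 299. Probe a was therefore not clearly the brighter in DRG. A further transcript without a gene symbol (A_52_P481829, chrX:69026800-69026859), which the files describe as similar to this kind of phosphatase, starts 2187 bases before probe b and was outside the rule. It ranged from 0.74 to 0.98 on uninjured and from 0.69 to 1.42 on injured arrays, with a difference of 0.18 (limma adjusted p = 0.356).

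Dusp7, a cytoplasmic ERK phosphatase, had a probe (A_52_P173197) at chr9:106104814-106104873. Its log2 ratio was −0.43, −0.64, 0.06 and −0.81 on uninjured arrays 1 to 4, and 0.59, 0.40, −0.27, 0.23 and −0.39 on injured arrays 1 to 5. The groups overlapped through uninjured array 3 and injured arrays 3 and 5. The difference of 0.57 (standard error 0.225) was about as large as that of Dusp9 but did not pass the test (limma adjusted p = 0.0962), with SDs of 0.377 (n = 4) and 0.425 (n = 5). Dusp7 was called without injured array 5 (0.69, adjusted p = 0.0386), without uninjured array 3 (0.74, adjusted p = 0.0422) and with slide as a random block (0.59, adjusted p = 0.028). Dusp6, the cytoplasmic phosphatase most specific for ERK and a feedback target of ERK signalling, was measured at chr10:98828759-98828818 (A_51_P502614). Its log2 ratio ranged from −2.26 to −1.73 on uninjured and from −1.93 to −1.55 on injured arrays, with a difference of 0.17 (95% interval −0.084 to 0.426, limma adjusted p = 0.327). Uninjured array 2 was the lowest, and without it the difference was 0.054, while on the slide with both groups it was 0.0022.

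Of the phosphatases that prefer JNK and p38, Dusp10 was higher after injury. Its probe (A_51_P104418) lies at chr1:183600757-183600816 on the plus strand. The log2 ratio of Dusp10 was −1.45, −1.55, −1.30 and −1.38 on uninjured arrays 1 to 4, and −0.59, −0.55, −0.67, −0.67 and −1.17 on injured arrays 1 to 5. Injured array 5 was the lowest of its group and still above every uninjured array. The uninjured mean was −1.42 ± 0.105 (SD, n = 4) and the injured mean −0.73 ± 0.249 (SD, n = 5), a rise of 0.69 (standard error 0.119, limma adjusted p = 0.00194) or 1.62-fold. The change of Dusp10 was 0.68 on the slide with both groups, which rests on 1 uninjured array. Over all arrays, the call was lost with slide as a covariate (limma adjusted p = 0.132) and with median centring (0.62, adjusted p = 0.0699). Without injured arrays 2, 4 and 5 the change was 0.79 (adjusted p = 0.00143).

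Dusp8, a phosphatase of JNK and p38 known from brain, had positive log2 ratios on every array by both of its probes. The brighter probe (A_51_P114314, labelled a, chr7:138507011-138507070) ranged from 1.64 to 2.12 on uninjured and from 1.63 to 2.17 on injured arrays, and its difference was 0.0091 (95% interval −0.261 to 0.279, limma adjusted p = 0.971). The sign of that difference turned in 8 of 28 alternative processings. The other probe (A_51_P263246, labelled b, chr7:138508909-138508968) ranged from 1.66 to 1.81 on uninjured and from 1.52 to 1.67 on injured arrays, with a difference of −0.15 (standard error 0.0622, limma adjusted p = 0.11), which was called with slide as a random block (−0.17, adjusted p = 0.0274).

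Dusp16, a phosphatase of JNK that shuttles between nucleus and cytoplasm, had 3 probes, and none passed the test. Probe a (A_51_P242634, chr6:134729960-134730000) gave a difference of 0.19 (95% interval −0.069 to 0.446, limma adjusted p = 0.284). Probe b (A_52_P374825, chr6:134751853-134751912), designed on a second transcript variant, gave 0.16 (95% interval −0.044 to 0.366, adjusted p = 0.249), and probe c (A_52_P492081, chr6:134732307-134732366) gave 0.088 (95% interval −0.082 to 0.258, adjusted p = 0.459). Injured array 5 was the highest of all arrays by probes a and b, at −2.86 and 0.08. The changes of the 3 probes differed from each other by 0.03 to 0.10 (exact permutation test, p = 0.492 to 0.762). The intervals of all 3 probes leave out a 1.5-fold change of these ratios, which were made with a background offset of 50. The probes were dim, with Cy5 brightness of 171 to 226, 169 to 227 and 80 to 104 for a, b and c. An offset draws the ratios of dim spots towards 0, so these intervals do not bound the change in Dusp16 RNA.

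**Figure D2:**
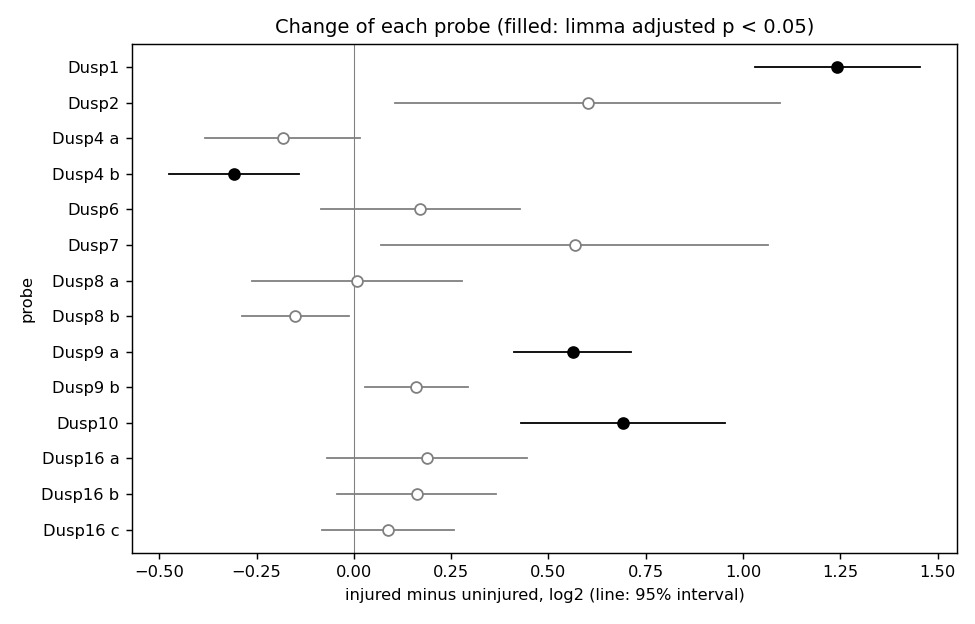
Change of each probe, injured minus uninjured on the log2 scale (horizontal axis), with its 95% interval from limma as a line, for the 14 probes (vertical axis). Filled points passed an adjusted p of 0.05: Dusp1 at 1.24, Dusp4 b at −0.31, Dusp9 a at 0.56 and Dusp10 at 0.69.

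The changes of related genes were compared directly for 4 pairs, by the brightest probe of each, with a two-sided exact permutation test on the difference of their log2 ratios per array. The change of Dusp1 exceeded that of Dusp4 by 1.42 (exact p = 0.0159, the smallest these arrays allow, and 0.0635 after adjustment over the 4 pairs). The change of Dusp6 was lower than that of Dusp9, by −0.39 (exact p = 0.0476, adjusted 0.0635), and than that of Dusp7, by −0.40 (exact p = 0.27). The change of Dusp8 was lower than that of Dusp16 by −0.18 (exact p = 0.0317, adjusted 0.0635). None of the 4 differences thus passed after adjustment. A pair alone at the smallest possible p cannot pass over 4 pairs, so this does not show that the changes were alike. With Agilent's own log ratios the differences of Dusp1 and Dusp4, Dusp6 and Dusp9, and Dusp8 and Dusp16 were 1.53, −0.67 and −0.24, each with an adjusted p of 0.0212.

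**Figure D3:**
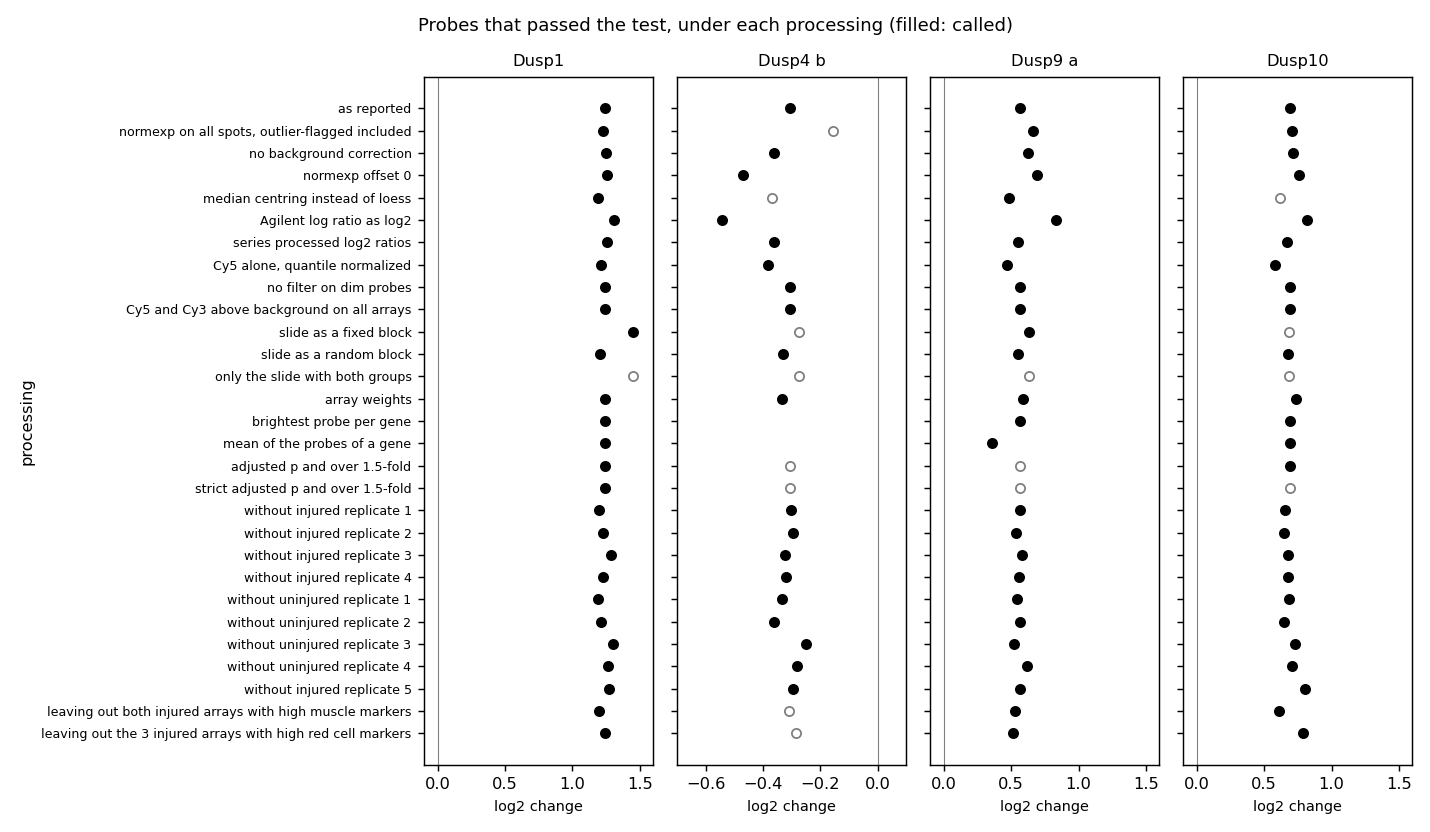
Change on the log2 scale (horizontal axes) of the 4 probes that passed the test, under each processing of the data (vertical axis). Filled points were called; Dusp1 stayed between 1.19 and 1.45 and lost its call only on the slide with both groups alone, whereas Dusp4 b was not called in 8 of 26 alternatives.

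The 250 bases before the RefSeq start of Dusp1, Dusp10 and Dusp8 are shown. Dusp1 and Dusp10 were higher after injury and Dusp8, the JNK and p38 phosphatase with positive log2 ratios, was not. The sequences are from RefSeq (GRCm38.p6, another build than the probe coordinates), written 5′ to 3′ on the strand of the gene. Dusp1 is at chr17:26508473-26508722 on the minus strand, Dusp10 at chr1:184034131-184034380 on the plus strand, and Dusp8 at chr7:142095285-142095534 on the minus strand. Capitals mark matches to any of the motifs searched.
Dusp1: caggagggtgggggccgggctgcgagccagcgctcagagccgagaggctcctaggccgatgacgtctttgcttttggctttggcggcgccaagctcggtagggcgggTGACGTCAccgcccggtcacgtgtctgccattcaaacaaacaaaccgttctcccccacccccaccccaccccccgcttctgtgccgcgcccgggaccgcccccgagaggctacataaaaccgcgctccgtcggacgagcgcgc
Dusp10: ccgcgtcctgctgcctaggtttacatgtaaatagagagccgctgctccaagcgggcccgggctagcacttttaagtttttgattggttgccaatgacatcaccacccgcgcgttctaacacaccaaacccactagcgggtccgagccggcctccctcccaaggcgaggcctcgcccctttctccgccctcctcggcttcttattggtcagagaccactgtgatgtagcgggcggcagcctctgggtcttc
Dusp8: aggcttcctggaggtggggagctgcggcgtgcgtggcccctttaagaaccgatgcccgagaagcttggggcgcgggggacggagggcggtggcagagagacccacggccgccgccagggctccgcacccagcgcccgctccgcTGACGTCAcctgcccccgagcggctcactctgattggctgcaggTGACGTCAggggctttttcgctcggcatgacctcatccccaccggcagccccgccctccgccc

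Promoters of 8 of the 10 genes were in the RefSeq table, Dusp4 and Dusp9 were not, and each was searched on both strands over 300 bases, from 250 before to 50 after the start. The cyclic AMP response element TGACGTCA was found in 2 of the 8, 143 bases before the start of Dusp1 and 107 and 63 bases before that of Dusp8, and in 1.79% of all 32851 promoters in the table. The looser form TGACGNCA, which includes it, was also found in Dusp16 as TGACGCCA, 70 bases before the start, and in 3.21% of all promoters. The AP-1 site TGANTCA, the ETS core CCGGAAGT and the CArG box of serum response factor were found in 0, 0 and 1 of the 8, against 7.81%, 3.89% and 1.63% of all promoters. The gene with the CArG box was Dusp5, which had 2 adjoining matches.

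The other genes of MAP kinase signalling were followed by the brightest probe of each, for which 11.2% of all 20898 genes were higher and 13.5% lower after injury, with a median change of 0.0019. On the same footing, 3 of the 9 phosphatase genes were higher and none lower, with a median of 0.56, the change of Dusp9 by probe a. With the probes of each gene averaged instead, 3 of the 9 were higher and 1 lower, and Dusp9 was at 0.36. The median over all 14 phosphatase probes was 0.17. Of 12 genes of the ERK cascade tested, 2 were higher and 0 lower (median 0.04): the GTPase Nras (0.60, limma adjusted p = 0.042) and the kinase Araf (0.36, adjusted p = 0.0352). Of 12 genes of the JNK cascade, 2 were higher and 4 lower (median −0.0020). Mapk8, which encodes JNK1, and Map3k11 were higher by 0.26 and 0.25 (adjusted p = 0.0171 and 0.0385), although 3 other probes of Mapk8 were not called. Mapk9, which encodes JNK2, fell by 0.34 (adjusted p = 0.0223) and Map3k9 by 0.38 (adjusted p = 0.00759, but at 0.03 and not called with Agilent's log ratios), and the other probes of both genes, at −0.10 to −0.18, were not called.

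Of 10 genes of the p38 cascade, 3 were higher and 3 lower (median 0.08). The p38 target kinase Mapkapk2 was higher by 0.58 (limma adjusted p = 0.00224) and Mapk14, which encodes p38 alpha, by 0.51 (adjusted p = 0.000225). The stress kinase Map3k5 fell by 0.75 (adjusted p = 0.00188), and Map2k6, which activates p38, fell by 0.50 (adjusted p = 0.000492), where its other tested probe was at −0.11 (adjusted p = 0.309). Of 4 genes of the ERK5 cascade, 1 was higher, Mapk7, which encodes ERK5 (0.38, adjusted p = 0.00688), and 1 lower, its activator Map2k5 (−0.33, adjusted p = 0.0357).

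Among 10 other phosphatases that act on MAP kinases 1 was higher, Ppm1d (0.21, limma adjusted p = 0.0287, with its other tested probe at 0.03 and not called), and 0 were lower (median 0.06). Of 12 atypical dual-specificity phosphatases tested, 2 were higher and 1 lower (median 0.0098). Dusp14 was higher by 0.81 (adjusted p = 0.000911), with its other probe at 0.71 (adjusted p = 0.0016), and Dusp11, an RNA phosphatase, by 0.46 (adjusted p = 0.00134). Dusp15 fell by 0.39 (adjusted p = 0.00261), where its other 2 probes were at −0.07 and −0.08 and not called. Of 6 Sprouty and Spred genes, feedback inhibitors of ERK signalling, 0 were higher and 3 lower (median −0.13): Spry3 fell by 0.46 (adjusted p = 0.0095), Spred2 by 0.46 (adjusted p = 0.00165) and Spred1 by 0.20 (adjusted p = 0.0386). The other 2 probes of Spred1 were at −0.12 and −0.14 and not called.

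Of 15 genes known to be induced through ERK, 8 were higher and 1 lower (median 0.40). Plaur, the urokinase receptor, was higher by 2.47 (limma adjusted p = 8.8e-09) and Phlda1 by 1.62 (adjusted p = 5.51e-06). Fosl1 was higher by 0.40 (adjusted p = 0.00525), and the ETS factor Etv1 fell by 0.80 (adjusted p = 0.000161). Of 6 AP-1 genes with Atf3, 4 were higher and 1 lower (median 0.64). Atf3, a marker of axotomised sensory neurons, was higher by 5.14 (adjusted p = 2.32e-11), with every injured array above every uninjured array, and Jun by 1.77 (adjusted p = 0.000318). Jund was higher by 0.58 (adjusted p = 0.00445) and Atf2 lower by −0.20 (adjusted p = 0.049), with 1 of its 3 other tested probes also called. With slide as a covariate, 10 of the 87 genes of these lists were called, against 37 without it, all 10 of them among the 37 and with the same sign. Map2k6, Plaur, Phlda1 and Atf3 were among them, and Jun (1.53, limma adjusted p = 0.0835) was not.

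**Figure D4:**
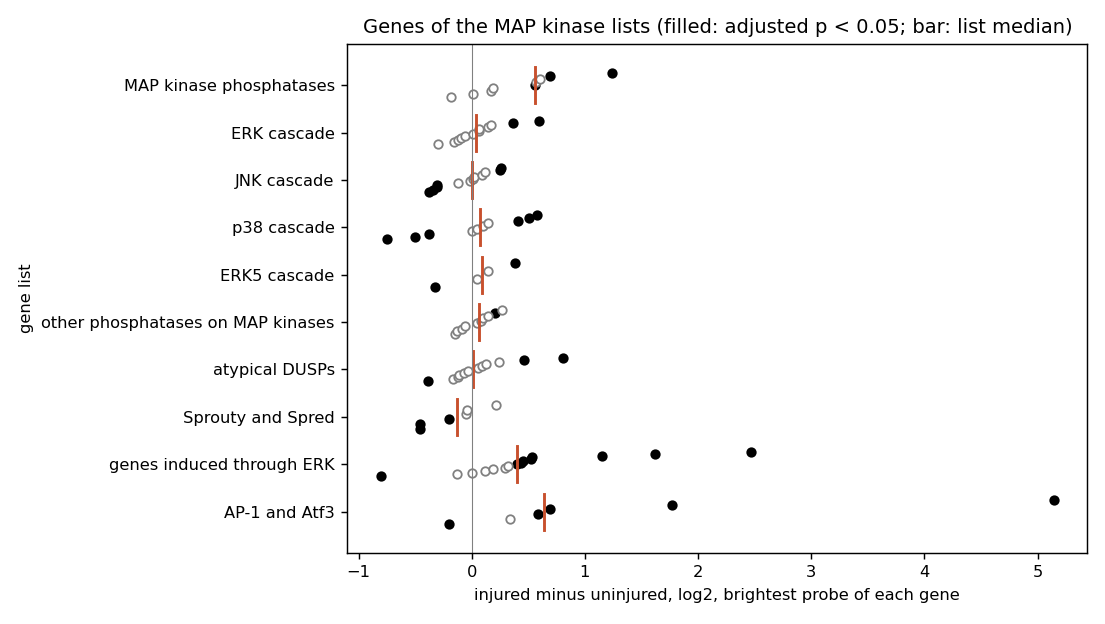
Change of each gene on the log2 scale by its brightest probe (horizontal axis) for the 9 phosphatase genes and the genes of 9 lists (vertical axis). Filled points passed an adjusted p of 0.05 and bars are list medians, at 0.56 for the phosphatases, −0.13 for Sprouty and Spred genes and 0.40 for genes induced through ERK.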

How the data were processed

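Agilent Whole Mouse Genome arrays of 9 DRG samples (4 uninjured, 5 injured) were read from the scanner files, made with Feature Extraction 10.5.1.1 per the file headers. The deposited intensities give the mean brightness of each spot and the median of its local background, in Cy5 and Cy3, before any normalization. The deposited log10 ratios were made by Agilent's background model and dye normalization, and the authors' processed log2 ratios of Cy5 over Cy3 (limma is named in the submitters' processing notes) had slopes of 1.00 to 1.01 against the ratios used here, with column medians of 0.0202 to 0.0240, so their scale and direction were read from the data; their exact centring remains unknown. Flags in the files mark spots that are outliers or above background.

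In R 4.3.3 with limma 3.58.1, spots flagged as outliers in either channel were left out on that array, normexp (offset 50) was used for background, and ratios were normalized by loess within each array, with control spots at weight 0. Repeated spots were averaged. The brightest probe of a gene is the one with the highest mean log2 brightness over Cy5 and Cy3. Probes were named through RefSeq (GRCm38.p6) by accession (22973 probes), symbol (6644) or older symbol (3105), and 8452 kept the name in the file. Probe coordinates are mm7, as deposited. Groups were compared with limma without covariates. The procedure was tested on simulated data with independent noise and no effect of slide, so that test does not bear on the overlap of slide and group. Pairs of probes were compared with a two-sided exact permutation test that doubles the smaller tail. The number of arrays limits the precision.

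The named genes are every member by every probe, the 2 highest and 2 lowest called changes of each list, Jun, Atf3 and the 3 genes most like the member with the smallest adjusted p. The Dusp9 neighbour was added after its values were seen. Members and lists were chosen with earlier results of these data known. Alternatives were other background corrections and normalizations, Agilent's and the authors' ratios, Cy5 alone, other filters, slide as a block, array weights, other rules for several probes of a gene, stricter thresholds and leaving out arrays. Protein sequences were not used here. Figures were drawn with matplotlib 3.10.9.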

Additional observations from a re-analysis of the deposited data

Results flagged for a closer look

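Of 28 groups of values checked (14 probes in both groups), 1 held an array far from the others, where chance alone gives about 1 in 20. Dusp10 on injured array 5 had a log2 ratio of −1.17, where the other injured arrays lay between −0.67 and −0.55, and the gap took up 0.81 of the range of the group. Without this array the change of Dusp10 was 0.80. Injured array 5 also had the lowest median Cy5 brightness (156) and the highest mean of the macrophage genes (1.03). Their part in the Dusp10 value was not tested.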

How the results depend on the processing

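The number of probes called over the array was 7302. It was 3500 with median centring, 1513 with slide as a covariate, 143 on the slide with both groups, 1623 above 1.5-fold and 1100 above 1.5-fold at an adjusted p under 0.001. Leaving out each array in turn gave 5343 to 7462. Of the 14 phosphatase probes 4 were called, and 2 with median centring, 2 with slide as a covariate, 7 with slide as a random block (Dusp2, Dusp7 and Dusp8 b in addition; estimated correlation −0.20), 0 on the slide with both groups, where the lone uninjured array is assumed to vary like the others, 2 above 1.5-fold and 1 at the stricter threshold. Leaving out each array in turn gave 4 to 6. Of the 87 genes of the MAP kinase lists 37 were called, and 21, 10, 3, 10 and 7 with median centring, slide as a covariate, the slide with both groups, above 1.5-fold and the stricter threshold, and 28 to 35 leaving out each array. Without both injured arrays high in muscle genes, 4006 probes were called, and without the 3 high in red cell genes 3491 probes and 20 list genes. These omissions, and the alternatives for the pairs, were chosen after seeing the data. Fewer arrays enter the fits on a slide or without arrays; otherwise the cause was not tested.

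The directions of the 4 called probes held in all their alternatives. Of the pairs, Dusp1 minus Dusp4 passed after adjustment at 1.39 with background fitted on all spots, 1.44 without background correction, 1.47 with an offset of 0, 1.47 with median centring and 1.53 with Agilent's ratios. Dusp8 minus Dusp16 passed in the same order at −0.40, −0.18, −0.20, −0.19 and −0.24. The fit on all spots distorted injured array 2, whose slope against the authors' ratios was 0.82, where the other arrays had 1.00 to 1.01. The values from that fit, 1.39 and −0.40, carry this distortion. Dusp6 minus Dusp9 passed at −0.56 with an offset of 0 and −0.67 with Agilent's ratios, with which the probes of Dusp4 (0.32) and of Dusp9 (0.68) also differed. Scan time grouped the arrays exactly as slide did and gave no separate value. No paired analysis was possible because replicates carry no numbers and animals are not identified in the labels.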
